A study of Drosophila melanogaster with 5 samples.

Results

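The microRNA genes mir-276a and mir-276b of Drosophila melanogaster are paralogues (related gene copies), and each yields a mature RNA from either arm of its hairpin. The 4 arms miR-276a-3p, miR-276a-5p, miR-276b-3p and miR-276b-5p were found by name among the 479 arms of 259 hairpins in the deposited count table. Small RNAs of 18 to 29 nt had been sequenced from dissected intestines (3 libraries) and from the carcasses that remained after dissection (2 libraries). All libraries came from adult males of the w1118 strain, 2 to 3 days old, raised on standard food, with no treatment and no allele that differed between the tissues. The carcass pools every tissue other than the intestine, including brain, eye, muscle, fat body and testis, so a carcass level is an average over many cell types. The labels do not say whether each replicate was made from its own animals. The p-values therefore reflect only how these libraries vary among themselves, which can be technical variation.

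A microRNA guides Argonaute to messenger RNAs, mainly through its seed, the bases that follow the first base of its 5′ end, and usually a single arm of the hairpin is retained in far larger amounts than its partner. In Drosophila, miR-276a is known from the nervous system, where it acts on a dopamine receptor gene in memory circuits and on the clock gene timeless. The 3p arms of both copies share their seed and differ outside it, whereas the 5p arms are known as identical, so that a 5p read cannot be traced to its gene by sequence. These statements are background, and the sequences themselves were not compared here.

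In the BDGP6.54 annotation both genes lie on the plus strand of chromosome arm 3L. The mir-276b hairpin (FBgn0262381) covers 10319785 to 10319883 and the mir-276a hairpin (FBgn0266076) covers 10365228 to 10365325. They are separated by 45344 bases with 0 other annotated hairpins between them. They lie in exons of different long noncoding RNA genes of the same strand: mir-276a in an exon of all 5 transcripts of lncRNA:CR46006, and mir-276b in an exon of both transcripts of lncRNA:CR46004 (2 of 2). The mature 3p arms occupy 10365281 to 10365302 (miR-276a-3p) and 10319846 to 10319867 (miR-276b-3p), 22 nt each. The 5p arms occupy 10365243 to 10365265 (miR-276a-5p) and 10319807 to 10319829 (miR-276b-5p), 23 nt each. The build behind the deposited counts was not stated in the labels, and these positions serve only to place the genes.

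The libraries held 329424 to 547937 microRNA reads in the intestine and 1654625 to 3038873 in the carcass, so low levels were measured less closely in the intestine. A count of 3 corresponded to 5.48 to 9.11 CPM (read counts brought to a common library size) in the intestine and to 0.987 to 1.81 CPM in the carcass. Marker microRNAs were compared between the labelled tissues, as CPM on library totals summed over both arms. The marker lists were chosen with earlier results of these data known, so their levels are no independent check of the labels. The intestine marker miR-958 summed to 191190 to 200001 CPM in the intestine and 756 to 888 CPM in the carcass. The neuronal miR-124 summed to 43.4 to 63.7 CPM in the intestine and 5248 to 6615 CPM in the carcass. The eye list (miR-210 and miR-263b) summed to 100.4 to 170.0 CPM in the intestine, with 2 of its 4 arms at 0, and to 13459 to 21113 CPM in the carcass. The muscle list (miR-1 and miR-133) summed to 27823 to 41637 CPM in the intestine and 143062 to 153071 CPM in the carcass. The male germline list summed to 24.4 to 33.4 CPM in the intestine, with 10 of its 24 arms at 0, and to 2169 to 2361 CPM in the carcass.

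The 3p arms of the copies differed between the tissues to unlike degrees. miR-276a-3p was abundant in both tissues and 1.95-fold lower in the intestine, whereas miR-276b-3p was 55.6-fold lower there. The 5p arms of the copies had almost equal numbers of reads in every library. Of the 4 arms, 2 were called lower in the intestine (edgeR quasi-likelihood test, Benjamini-Hochberg adjusted p under 0.05), against 48.2% of the 222 arms tested (82.9% in either direction). Intestine and carcass values were apart, with no overlap, for 2 of the 4 arms, against 87.8% of all tested arms. All 4 arms passed the low-count filter. Levels below are CPM scaled with trimmed mean of M-values (TMM) factors, and folds are intestine over carcass unless stated.

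miR-276a-3p, the arm that carries most reads of its hairpin, measured 26953, 22983 and 22257 CPM in the intestine libraries, against 51571 and 42167 CPM in the carcass libraries. All 3 intestine values lay below both carcass values. It averaged 24064 ± 2528 CPM over the intestine libraries (SD, n = 3), against 46869 ± 6649 CPM over the carcass libraries (SD, n = 2). This gave a log2 fold change of -0.96 (SE 0.19, edgeR adjusted p = 2.64e-05), and the arm was lower in 3 of 3 intestine libraries. It ranked 13th to 14th among all arms in the intestine and 5th in both carcass libraries. Its reads made up 2.34, 2.03 and 1.87% of microRNA reads in the intestine, against 6.58 and 5.11% in the carcass.

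miR-276b-3p had exactly 17 reads in each of the 3 intestine libraries, against 5989 and 9337 reads in the carcass libraries. This corresponded to 35.7, 52.2 and 61.4 CPM in the intestine and to 2838 and 2536 CPM in the carcass. The tissues were far apart, and the spread within the intestine followed the library totals, since the read number was the same in each. It averaged 49.8 ± 13.04 CPM over the intestine libraries (SD, n = 3), against 2687 ± 214 CPM over the carcass libraries (SD, n = 2), a log2 fold change of -5.80 (SE 0.30, edgeR adjusted p = 1.42e-18), lower in 3 of 3 intestine libraries. Of the 222 tested arms it had the eighth smallest p. As a share of microRNA reads the intestine values were 0.00310% (95% exact Clopper-Pearson interval 0.00181 to 0.00497), 0.00462% (0.00269 to 0.00739) and 0.00516% (0.00301 to 0.00826), against 0.362% (0.353 to 0.371) and 0.307% (0.301 to 0.314) in the carcass. Reads carry no molecular identifiers, so these intervals cover counting error only. In an RNA sample of a whole tissue, fewer cells of a type and less RNA per cell cannot be told apart.

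miR-276a-5p, the less abundant arm of its hairpin, measured 2575, 3605 and 4219 CPM in the intestine, against 3919 and 5570 CPM in the carcass. miR-276b-5p measured 2971, 3295 and 3923 CPM in the intestine, against 3661 and 5273 CPM in the carcass. For both, the highest intestine value exceeded the lowest carcass value. miR-276a-5p had a log2 fold change of -0.45 (SE 0.24, edgeR adjusted p = 0.0787), and miR-276b-5p had -0.40 (SE 0.23, edgeR adjusted p = 0.113). Neither passed the threshold with TMM factors, but both did under most other scalings, as the plot of folds by scaling shows. Leaving out a library also moved these calls in edgeR. miR-276a-5p passed without intestine replicate 1 (-0.51, adjusted p = 0.0174), 2 (-0.66, 0.0362) or 3 (-0.86, 0.00386) and without carcass replicate 1 (-0.67, 0.0128), but not without carcass replicate 2 (-0.19, 0.510). miR-276b-5p passed without intestine replicate 1 (-0.54, 0.0121) or 3 (-0.75, 0.0116) and without carcass replicate 1 (-0.62, 0.0223). As a share of microRNA reads, with no scaling, the values did not overlap: miR-276a-5p made up 0.224 to 0.355% in the intestine and 0.4998 to 0.675% in the carcass, and miR-276b-5p 0.258 to 0.330% in the intestine and 0.467 to 0.639% in the carcass. On this basis 86.5% of all tested arms likewise had no overlap, and the median log2 fold change over those arms was -1.03.

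**Figure D1:**
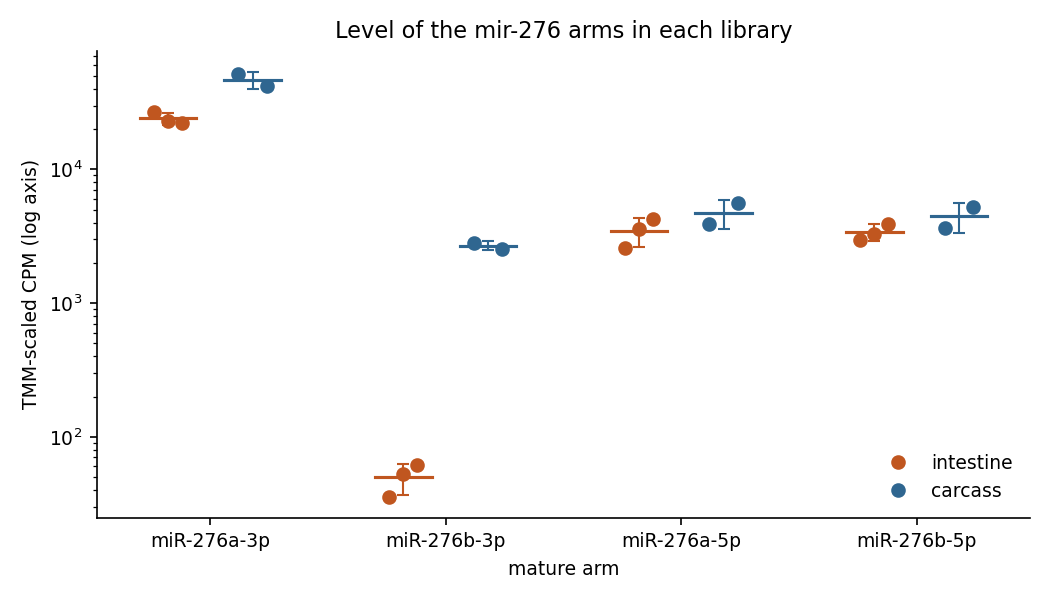
TMM-scaled CPM (log axis) of the 4 mature arms in each library, intestine left of carcass; points are libraries, horizontal lines are means and bars are SDs (n = 3 and 2). miR-276b-3p sits at 35.7 to 61.4 in the intestine and at 2536 to 2838 in the carcass, while the 5p arms of both copies lie at similar heights in both tissues.

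The order of the levels, as counted, was the same in both tissues. miR-276a-3p was highest, the 5p arms came next and overlapped each other, and miR-276b-3p was lowest. In the carcass miR-276b-3p lay below miR-276b-5p in both libraries. In the intestine miR-276b-3p lay below both 5p arms by more than the spread of any of them. The 5p reads may be shared between the copies, so the place of miR-276b-3p below miR-276b-5p depends on how they were assigned.

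The share of each copy was compared next, within each library, where no scaling between libraries enters. miR-276b-3p made up 0.132% (95% exact interval 0.0770 to 0.212), 0.227% (0.132 to 0.363) and 0.275% (0.160 to 0.440) of the 3p reads of both copies in the intestine libraries. In the carcass libraries it made up 5.22% (5.09 to 5.35) and 5.67% (5.56 to 5.79). The groups did not overlap, with means of 0.211 ± 0.073% (intestine, SD, n = 3) against 5.44 ± 0.32% (carcass, SD, n = 2). An exact two-sided permutation test over the libraries gave p = 0.1, the smallest value that 10 splits allow. Put as reads, there were 756, 440 and 362 miR-276a-3p reads for each miR-276b-3p read in the intestine, against 18.2 and 16.6 in the carcass.

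The 5p arm gave another picture in the same libraries. miR-276b-5p made up 53.6% (51.7 to 55.5), 47.8% (45.7 to 49.8) and 48.2% (46.1 to 50.3) of the 5p reads of both copies in the intestine, against 48.3% (47.5 to 49.1) and 48.6% (48.1 to 49.1) in the carcass. The tissues overlapped, and the exact two-sided permutation test gave p = 1.0. The counting intervals left out an equal split in 4 of the 5 libraries, with intestine 1 above it and the other libraries of these below, but no library was more than 3.58 percentage points from it. How the authors assigned reads with several matches, and how many mismatches they allowed, was not stated in the labels. The 5p counts of the copies are therefore not taken as separate measurements, and how many of the 17 intestine reads of miR-276b-3p are misassigned miR-276a-3p reads was not tested.

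**Figure D2:**
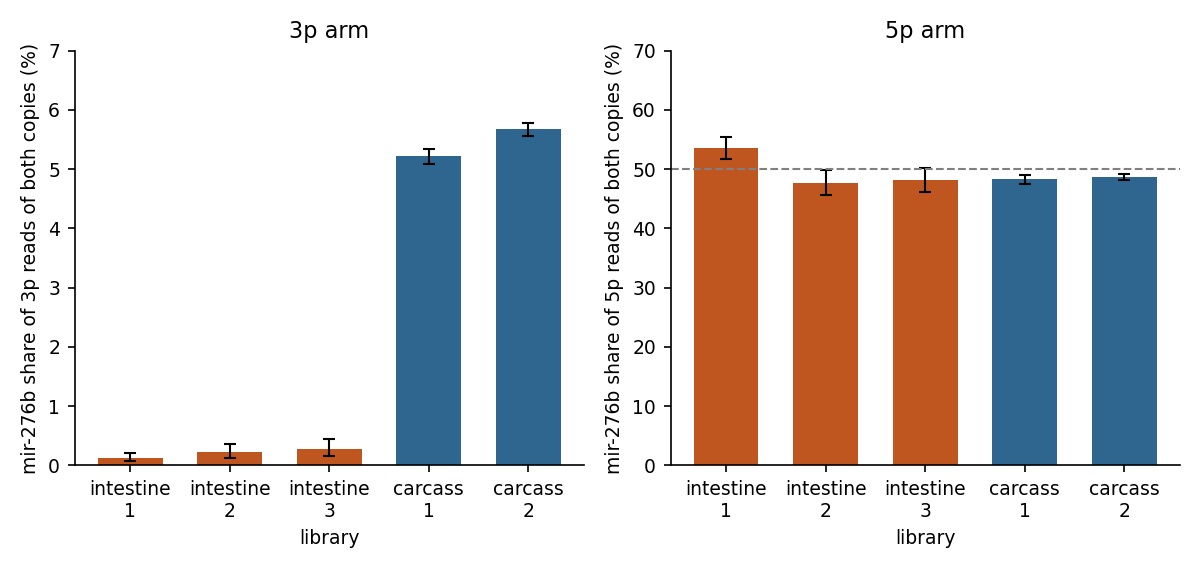
Share of mir-276b among the reads of both copies (percent), for the 3p arm (left) and the 5p arm (right, with a dashed line at 50), in the 3 intestine and 2 carcass libraries; bars are the shares and whiskers the 95% exact binomial intervals. The 3p share lies at 0.132 to 0.275% in the intestine and at 5.22 to 5.67% in the carcass, whereas the 5p share stays between 47.8 and 53.6% in all libraries.

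Whether the ratio of the copies differed between tissues was tested in the same way for all pairs of hairpins that share a number and arm, such as mir-9a with mir-9b. Of these, 48 pairs had at least 1 arm past the low-count filter. For the 3p arm, the log2 ratio of mir-276a to mir-276b averaged 8.91 ± 0.55 for the intestine (SD, n = 3) against 4.12 ± 0.09 for the carcass (SD, n = 2), a difference of 4.79 (SE 0.37, limma adjusted p = 0.00234), higher in 3 of 3 intestine libraries. For the 5p arm, it averaged 0.01 ± 0.19 for the intestine against 0.09 ± 0.01 for the carcass, a difference of -0.08 (SE 0.15, limma adjusted p = 0.7501). Thus the 3p pair passed the test, as did 43.8% of all 48 pairs, and its tissues did not overlap, as in 64.6% of all pairs. Because the 5p reads may be shared between the copies, the 5p test could not show whether the copies differ.

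The sign of these differences follows only the name order of the copies. Some negative differences also exceeded the 4.79 of the mir-276 3p pair in size, such as -4.85 for mir-307a against mir-307b, 3p (limma adjusted p = 0.0193). That pair had 1 read of miR-307b-3p in the intestine and 1 in the carcass. Its ratio therefore mainly follows the reads of miR-307a-3p and the pseudocount. In the order of the 48 differences, counted from the lowest, the mir-276 3p pair stood at 43. Next below it, mir-2b-1 against mir-2c for the 5p arm (3.71, limma adjusted p = 0.0842) did not pass, and rested on 12 and 2 intestine reads. Next above it, mir-263a against mir-263b for the 3p arm had 5.03 (limma adjusted p = 0.00437), with 0 intestine reads of miR-263b-3p. With only the most different pair of each number counted, the largest differences of other numbers were 8.31 for mir-263a against mir-263b, 5p (limma adjusted p = 0.00108), -5.90 for mir-13a against mir-13b-2, 3p (limma adjusted p = 0.000138; mir-13a against mir-13b-1 had -5.87), and 5.81 for mir-2a-1 against mir-2c, 5p (limma adjusted p = 0.0233). The last of these rested on 2 intestine reads of miR-2c-5p and was lost without intestine replicate 2 (adjusted p = 0.0793) or either carcass library (0.116 without replicate 1, 0.105 without replicate 2). The ratio of the copies thus also differed between the tissues for mir-263 and mir-13. Pairs of mir-2 and mir-9 were called as well, among them mir-9a against mir-9b, 5p (-0.99, limma adjusted p = 0.0130). The mir-307 3p pair was called too, but with the few miR-307b-3p reads given above it does not show a difference between copies.

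The near-equal split of the 5p arm also occurred in other copies. Of the 48 pairs, 24 had at least 10 reads of each copy in every library, a minimum set after the values were seen. In 6 of these the ratio stayed within 1.23-fold of equality (0.3 on the log2 scale) in every library. This limit was not among the planned settings either. Besides miR-276-5p they were the 3p arms of mir-13b-1 and mir-13b-2, of mir-2a-1 and mir-2a-2, of mir-2a-2 and mir-2b-1, of mir-2b-1 and mir-2b-2, and of mir-281-1 and mir-281-2. Among these others only mir-2a-2 and mir-2b-1 differ by letter, while the rest differ only by copy number. For miR-276-5p the log2 ratio of mir-276a to mir-276b lay between -0.21 and 0.13.

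**Figure D3:**
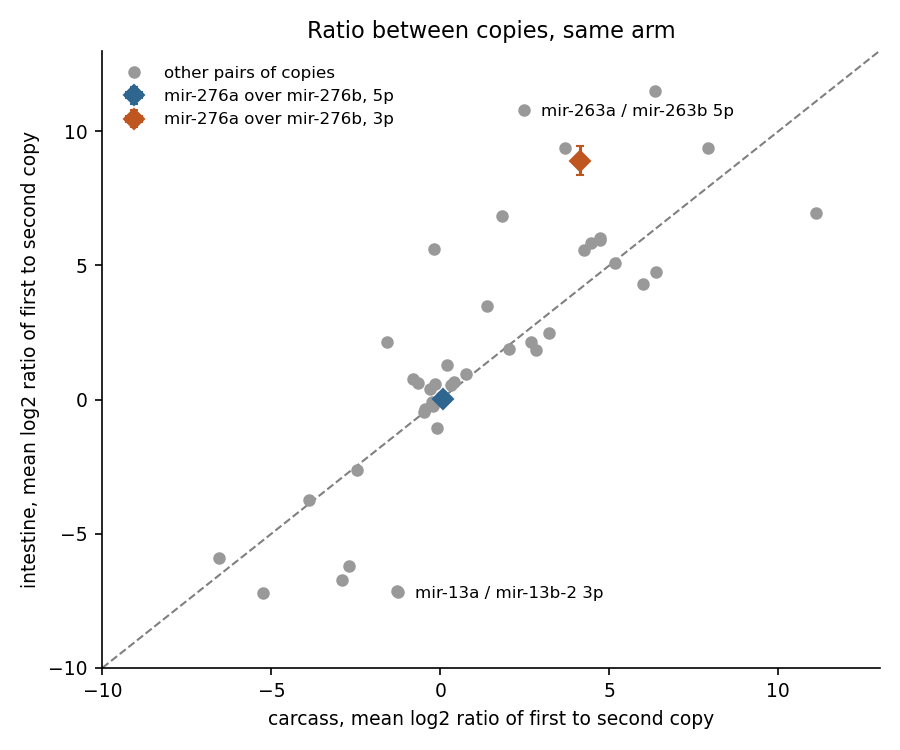
Mean log2 ratio of the first to the second copy, intestine (vertical axis) against carcass (horizontal axis), for the 48 pairs of copies of the same arm; diamonds mark the mir-276 pairs with SDs (n = 3 and 2), grey points the other pairs, and the dashed line equal ratios. The mir-276 3p pair lies 4.79 above the line, while the 5p pair lies on it at about 0 in both tissues.

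The use of the arms was compared by the ratio of 3p to 5p reads. Because the 5p reads may be shared, the reads of both copies were summed. There were 4.87, 3.34 and 2.74 reads of the 3p arm for each 5p read in the intestine, against 7.18 and 4.12 in the carcass. The tissues overlapped, since intestine 1 exceeded carcass 2. The log2 ratio averaged 1.83 ± 0.42 for the intestine (SD, n = 3) against 2.44 ± 0.57 for the carcass (SD, n = 2), a difference of -0.62 (SE 0.37, limma adjusted p = 0.272). The 3p arm was thus the larger in every library, and a difference in arm use between the tissues was not detected with these libraries.

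Read separately, the hairpins gave unlike ratios. mir-276a had 10.5, 6.38 and 5.28 reads of its 3p arm per 5p read in the intestine, against 13.2 and 7.57 in the carcass (difference in log2 ratio -0.50, SE 0.40, limma adjusted p = 0.402). mir-276b had 0.0120, 0.0159 and 0.0157 in the intestine, against 0.775 and 0.481 in the carcass (difference -5.37, SE 0.28, limma adjusted p = 0.000266), so its 5p arm appeared 63.1- to 83.3-fold more abundant than its 3p arm in the intestine. This is 1 of 2 hairpins called, against 24.6% of the 130 hairpins tested, and it includes 5p reads that cannot be assigned to mir-276b. Tissues did not overlap in 1 of 2, against 56.9% of all hairpins. Both shares include hairpins with no intestine read on either arm, such as mir-985 and mir-975, whose intestine log2 ratio of 0 comes from the pseudocount.

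Summed over the copies and refitted in edgeR with the same TMM factors, miR-276-3p averaged 24114 ± 2515 CPM over the intestine libraries (SD, n = 3), against 49556 ± 6863 CPM over the carcass libraries (SD, n = 2), with a log2 fold change of -1.04 (SE 0.19, edgeR adjusted p = 1.04e-05). miR-276-5p averaged 6862 ± 1298 CPM over the intestine libraries, against 9211 ± 2307 CPM over the carcass libraries, with a log2 fold change of -0.43 (SE 0.22, edgeR adjusted p = 0.0784). With TMM factors taken anew from the summed table, the log2 fold change was -1.33 for miR-276-3p (edgeR adjusted p = 6.32e-12). For miR-276-5p it was then -0.70 (edgeR adjusted p = 0.00133), so the call on the summed 5p arm depended on the factors. All 4 arms together made up 2.83, 2.64 and 2.56% of microRNA reads in the intestine, against 7.91 and 6.73% in the carcass (exact permutation p = 0.1, the smallest possible).

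The difference in miR-276b-3p was set beside that of the marker microRNAs, as the intestine level in percent of the carcass mean, on library totals. miR-276b-3p stood at 0.927, 1.38 and 1.54% in the intestine libraries. The neuronal miR-124-3p stood at 0.894, 0.733 and 1.08%, the eye microRNAs miR-210-3p at 0.527, 0.745 and 1.03% and miR-263b-5p at 0.915, 0.389 and 0.870%, and the muscle microRNA miR-133-3p at 0.807, 0.643 and 1.63%. The range of miR-276b-3p overlapped those of miR-124-3p, miR-210-3p and miR-133-3p and lay just above that of miR-263b-5p. The male germline list was also far lower in the intestine, at 24.4 to 33.4 CPM against 2169 to 2361 CPM in the carcass. Outside the marker lists, miR-993-3p stood at 0.573, 0.852 and 0.952% and miR-13a-3p at 2.06, 2.39 and 1.91%. Low levels thus also occurred outside the marker lists, though miR-13a-3p lay above the range of miR-276b-3p. The cell types of miR-993-3p and miR-13a-3p were not tested. miR-276a-3p stood at 40.1, 34.7 and 32.0%, above the muscle microRNA miR-1-3p at 19.6, 29.4 and 25.2%. On library totals the median log2 fold change over all tested arms was -1.03, so a level below that of the carcass was common. The part of neuronal, eye or muscle RNA left in the dissected intestines in the miR-276b-3p reads was not tested.

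**Figure D4:**
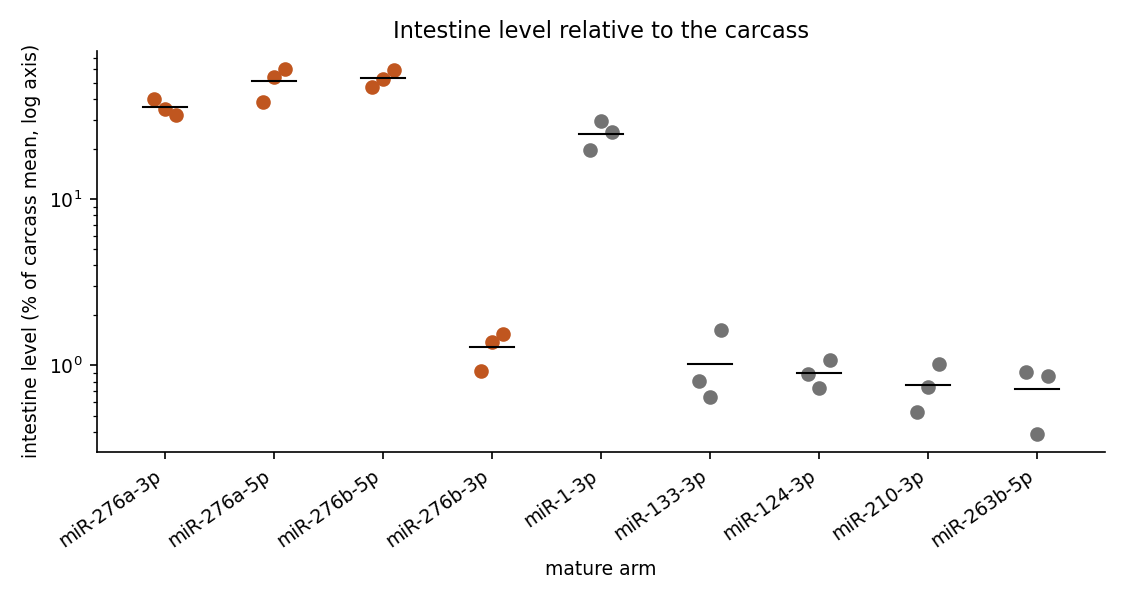
Intestine level of each arm in percent of the carcass mean (library totals, log axis); points are the 3 intestine libraries, lines their means, with the mir-276 arms in orange and marker arms of muscle, neurons and eye in grey. miR-276b-3p lies at 0.927 to 1.54%, among miR-133-3p, miR-124-3p, miR-210-3p and miR-263b-5p, while the other mir-276 arms lie at 32.0 to 60.4%. With library totals the median log2 fold change over all tested arms is -1.03.

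The arms most like each 3p arm over the 5 libraries were found by the root mean square difference of centred log2 CPM, where a small value means that an arm rises and falls in the same libraries. With only 2 tissues this mostly compares folds between them. Nearest to miR-276b-3p were miR-1015-3p (0.24), miR-975-5p (0.26) and miR-285-3p (0.26), against a median of 2.59 over all other arms. miR-1015-3p averaged 6.56 ± 0.58 CPM over the intestine libraries, against 372.0 ± 3.34 CPM over the carcass libraries, with a log2 fold change of -5.82 (edgeR adjusted p = 3.33e-16). miR-285-3p had -5.44 (edgeR adjusted p = 1.25e-16). These rested on 7 intestine reads of miR-1015-3p and 14 of miR-285-3p. miR-975-5p, of a testis cluster, had no intestine read and an edgeR log2 fold change of -9.88, far from the -5.80 of miR-276b-3p. Each of these 3 was kept for testing because of its carcass reads, so their low intestine values, and with them their likeness to miR-276b-3p, depend on few reads and on the prior count of 2. Nearest to miR-276a-3p were miR-8-3p (0.14) and miR-8-5p (0.17), of a microRNA of the miR-200 family, and miR-1-5p (0.14), against a median of 1.26. Their log2 fold changes were -1.12, -1.30 and -0.93 (edgeR adjusted p = 4.15e-07, 4.61e-06 and 0.00187), close to that of miR-276a-3p (-0.96).

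Other microRNAs with reported roles in the clock, sleep or memory of flies did not move one way. The list held 14 hairpins with 28 arms, of which 24 were tested. In the intestine 10 arms were higher and 7 lower, against 34.7 and 48.2% of all tested arms, and 7 did not pass. Their median log2 fold change was 0.47, against -0.50 for all tested arms. The smallest p-values belonged to lower arms: miR-210-3p (-6.54, edgeR adjusted p = 1.05e-19), miR-124-3p (-6.28, 1.09e-19), miR-263b-5p (-6.55, 6.70e-19) and miR-210-5p, which had no intestine read and 1369 carcass reads. Beside them, miR-276b-3p had -5.80 and miR-276a-3p had -0.96.

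The size of the folds depended on how the libraries were scaled. TMM measures each library against a fixed one, here intestine 1. The median fold of the 222 arms was -0.50 (log2) with intestine 1 in that place and between -0.83 and -0.64 with another library. miR-276b-3p stayed between -6.32 and -5.80 over all scalings and was called in each. miR-276a-3p stayed between -1.49 and -0.96 and was also called in each. The 5p arms were lower in the intestine in every scaling (-0.98 to -0.45 for miR-276a-5p and -0.92 to -0.40 for miR-276b-5p), but were not called with TMM on intestine 1 or with upper-quartile factors, and miR-276b-5p was also not called with TMM on carcass 1. The median of all arms was likewise below 0 in every scaling, at -1.03 with library totals. Ranked by fold change from the lowest of 222 arms, miR-276a-5p stood at 113 and miR-276b-5p at 114, near the middle, with miR-276a-3p at 103 and miR-276b-3p at 35.

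**Figure D5:**
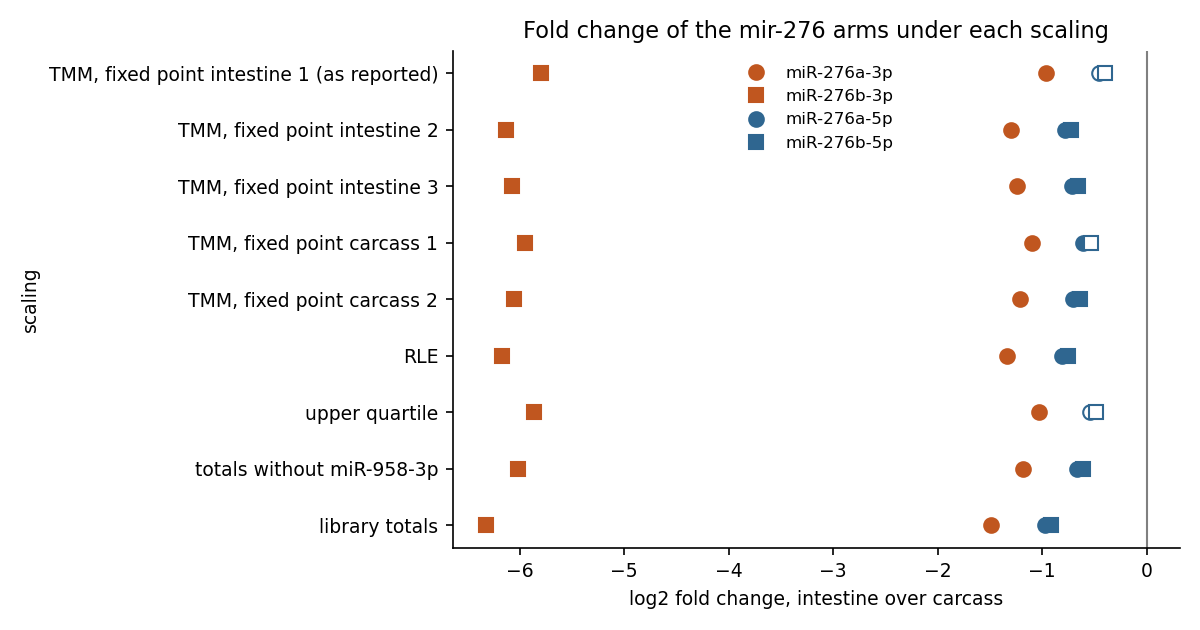
Log2 fold change (intestine over carcass) of the 4 arms under 9 scalings, with filled symbols for an adjusted p under 0.05 in edgeR and open symbols otherwise. miR-276b-3p lies near -6 and miR-276a-3p between -1.49 and -0.96 in each, while the 5p arms lie closer to 0 and are open in the TMM fit as reported and with upper-quartile factors.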

How the data were processed

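The authors deposited raw counts, whole numbers of reads for each mature microRNA arm and library, without normalisation. The submitters' processing notes name Subread 2.0.0, featureCounts, Bowtie2 2.3.2 and cutadapt 1.9.1. Build, annotation, strand setting, allowed mismatches and the handling of multiply matching reads are not given in the sources used. Rows were matched to BDGP6.54 (473 by name, 6 by RefSeq synonym), and arms were assigned by position in the hairpin. Groups came from the sample titles. Arms were kept by filterByExpr (minimum count 10, minimum total 15), scaled with TMM and tested with the edgeR 4.0.16 quasi-likelihood test in R 4.3.3. Log2 ratios of arms and of copies (pseudocount 0.5) were tested with limma 3.58.1, and all p-values were adjusted over the whole table of the test by Benjamini-Hochberg. Alternatives were other scalings, filters and pseudocounts, DESeq2 1.42.0, limma-voom, robust fits, a replicate block, summed copies and leaving out each library (a lone carcass library is then taken to vary like the intestine libraries). TMM on other libraries was added after the data were seen. In simulated counts of the 222 arms, edgeR recovered 33.8% of 1.5-fold and 77.9% of 2-fold differences, with 2.13% of unchanged arms called. Over 10 runs the simulation held 1220 unchanged arms and 340, 330 and 330 arms changed 1.5-, 2- and 4-fold. In the data 82.9% of tested arms were called, so these rates may not hold there. The members, lists and tests were chosen with earlier results of these data known. The arms named besides the 4 members were the 3 most similar to each 3p arm, the pairs of copies next to the 3p pair in the order of differences, the most different pair of each of 3 other numbers, and the 4 smallest p of the list. The mir-9 and mir-307 pairs and the levels of miR-993-3p and miR-13a-3p were added after the values were seen.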

Additional observations from a re-analysis of the deposited data

How the results depend on the processing

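The calls of miR-276a-3p and miR-276b-3p, and of the 3p ratio of the copies (4.46 to 5.01), kept their direction and their side of the threshold in every alternative run. The 5p arms did not: miR-276a-5p and miR-276b-5p, not called with TMM, were called lower with RLE factors (-0.81 and -0.75), library totals (-0.98 and -0.92), totals without the most abundant microRNA (-0.67 and -0.61), DESeq2 (-0.81 and -0.75), no low-count filter (-0.87 and -0.81), a mean of at least 10 CPM (-0.71 and -0.65), summed copies (-0.70 for both), TMM on intestine 2 (-0.78 and -0.72), on intestine 3 (-0.72 and -0.66) and on carcass 2 (-0.71 and -0.64), and miR-276a-5p alone with TMM on carcass 1 (-0.61) and with the replicate block (-0.62). Without 1 library they ranged from -0.86 to -0.19 and from -0.75 to -0.13. Summing the copies moved the TMM factors, and with the factors held the summed 5p arm was not called (-0.43). Arms called higher numbered 77, and 50 with library totals. The 5p ratio of the copies, never called, lay between -0.14 and 0.029 without 1 library and was above 0 without intestine replicate 1. Called arm ratios (10 higher, 22 lower) became 16 higher with a pseudocount of 1 read, 34 higher and 41 lower with 5 reads, 4 and 9 where both arms had to pass the filter, and 16 higher with robust moderation; without 1 library they ranged from 3 to 14 higher and from 7 to 19 lower, with 3 and 7 without carcass replicate 1 and 4 and 9 without carcass replicate 2. With the replicate block limma called 0 higher and 0 lower (16 and 28 at an unadjusted p under 0.05), and mir-276b was not called (-5.43, adjusted p = 0.0614). Called ratios of copies (11 higher, 10 lower) became 6 lower where both had to pass the filter, and without 1 library ranged from 3 to 14 higher and from 2 to 10 lower, with 3 and 2 without carcass replicate 1, 3 and 3 without carcass replicate 2, and 4 lower without intestine replicate 2. The cause was not tested for these changes. The libraries share only a number: deviations of same-numbered libraries correlated at 0.0258 and 0.021 across arms, and intestine 3 has no partner. The 17 intestine reads per library limit the precision of miR-276b-3p.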
